A study of Mus musculus with 20 samples.

Results

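The circadian clock genes of mouse macrophages were followed through a yeast stimulus, calcium chelation and the loss of the mitochondrial calcium uniporter gene *Mcu*. The 10 genes were *Clock*, *Arntl*, *Per1*, *Per2*, *Per3*, *Cry1*, *Cry2*, *Nr1d1*, *Nr1d2* and *Usp2*, found by symbol among the 21963 entries of the count table. All 10 were among the 11707 genes that passed the filter on low counts. *Usp2* was selected on its fall with zymosan in WT macrophages, among the largest in the table, and *Cry1* was selected on its rise with BAPTA-AM. The other 8 were chosen by their role in the clock, with earlier results of these data known. For all 10, the WT zymosan response and the BAPTA-AM comparison are therefore given as levels and fold changes without a p. The same holds for *Usp2* and *Cry1* wherever the WT zymosan libraries, on which both were selected, enter a comparison, and for *Usp2* with the untreated WT libraries.

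Bulk RNA was sequenced from bone marrow-derived macrophages grown in L929-conditioned medium, from mice 15 to 25 weeks old. WT macrophages were left untreated (4 libraries), given zymosan for 3 h at 2 particles per cell (5 libraries), or loaded with 10 µM BAPTA-AM and given zymosan in the same way (4 libraries). Zymosan is a particle of yeast cell wall that macrophages sense through dectin-1 and TLR2, and BAPTA-AM is a calcium chelator in a form that enters cells. *Mcu*-/- macrophages were left untreated (4 libraries) or given zymosan for 3 h (3 libraries); *Mcu* was removed in these mice by a Cre recombinase under *Cx3cr1*, so loss depends on where and when *Cx3cr1* was active. Labels call the libraries biological replicates without naming animals or cultures, so a p measures only the spread between these libraries. No label gives the clock time of harvest. A bulk level cannot tell fewer expressing cells from less RNA per cell.

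In the molecular clock, CLOCK and BMAL1 (the product of *Arntl*) bind E-boxes and switch on *Per*, *Cry* and *Nr1d* genes. PER and CRY proteins then repress CLOCK and BMAL1, while REV-ERBα and REV-ERBβ (*Nr1d1* and *Nr1d2*) repress *Arntl* through ROR elements that ROR factors activate. In macrophages, REV-ERB proteins also repress inflammatory and migration genes, and BMAL1 restrains the inflammatory response.

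Levels are in CPM, each library's counts brought to the same total, after scaling by TMM, an edgeR method that removes differences in library composition. Total counts were 14420402 to 19319353 in WT untreated, 20307033 to 22375733 in WT zymosan, and 17368570 to 21749128 in BAPTA-AM loaded libraries. They were 21891831 to 22801120 in untreated *Mcu*-/- libraries and 20061474 to 23954552 with zymosan. At 1 CPM a library held between 15.7 and 28.1 counts. A gene was called where edgeR's quasi-likelihood test gave a Benjamini-Hochberg adjusted p under 0.05 over all genes tested.

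The labels were checked first. *Mcu* lay at 6.10 to 9.54 CPM in the 13 WT libraries and at 2.63 to 4.05 CPM in the 7 *Mcu*-/- libraries, with no overlap. Its log2 fold change between genotypes was −1.14 (SE 0.132, edgeR adjusted p = 0.000163) untreated, −1.25 (SE 0.129, edgeR adjusted p = 8.35e-09) untreated without *Mcu*-/- replicate 4, and −0.82 (SE 0.144, edgeR adjusted p = 9.61e-05) with zymosan. *Il1b*, *Il6*, *Tnf* and *Cxcl10*, which mark the inflammatory response, were called higher with zymosan in both genotypes, with and without *Mcu*-/- replicate 4. *Il6*, for example, ran from 0.0426 to 0.342 CPM untreated and from 218 to 234 CPM with zymosan in WT. The macrophage genes *Adgre1* (2460 to 5060 CPM), *Csf1r* (504 to 1270 CPM) and *Lyz2* (2820 to 8390 CPM) were abundant in all 20 libraries. The marker lists of T and NK, B, mast and basophil, and erythroid cells each summed to at most 2.57 CPM in any library, and *Ncr1* was at 0 throughout. The 4 dendritic cell markers summed to 0.597 to 11.4 CPM, *Xcr1* had the highest mean of them at 5.27 CPM, and *Cd209a* was at 0. That sum was at least 5.46 CPM in every library given zymosan and at most 1.06 CPM in every untreated one, and its part in the zymosan results was not tested.

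Untreated *Mcu*-/- replicate 4 stood apart from replicates 1 to 3. Against each of those 3, the median absolute log2 difference over genes was 0.317 to 0.325, while the remaining 28 pairs within groups had 0.0556 to 0.0947. Its 8 macrophage markers summed to 8550 CPM, where replicates 1 to 3 held 14400 to 14800. The *Mcu*-/- zymosan libraries were also low, at 10400 to 10800 CPM, while WT zymosan libraries held 16100 to 16400. *Lyz2* was the most abundant gene of that list, and all 8 markers were detected.

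Other genes set replicate 4 and the *Mcu*-/- zymosan libraries off from the remaining 16 in the same direction. The 4 fibroblast genes summed to 25.3 CPM in replicate 4 and 40.5 to 49.3 CPM in the *Mcu*-/- zymosan libraries, against at most 5.00 CPM in every WT library and in *Mcu*-/- replicates 1 to 3. *Col1a2* led that list, and *Dcn* and *Pdgfra* reached at most 0.398 and 0.285 CPM. The neutrophil list, led by *S100a9*, summed to 0.159 CPM in replicate 4 and 0.396 to 0.589 CPM in *Mcu*-/- zymosan, against 1.66 to 4.84 CPM elsewhere. *Mmp9* lay at 57.0 CPM in replicate 4 and 70.6 to 73.4 CPM in *Mcu*-/- zymosan, against 152 to 237 CPM elsewhere. The part of these differences in the *Mcu*-/- results was not tested, and tests of named genes and counts of calls that use untreated *Mcu*-/- libraries are given with and without replicate 4. Leaving it out lowered the common biological coefficient of variation from 12.4% to 3.56%. The untreated *Mcu*-/- libraries that then remain all differ from the *Mcu*-/- zymosan libraries in these genes. Values without replicate 4 therefore cannot tell treatment from these differences.

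**Figure D1:**
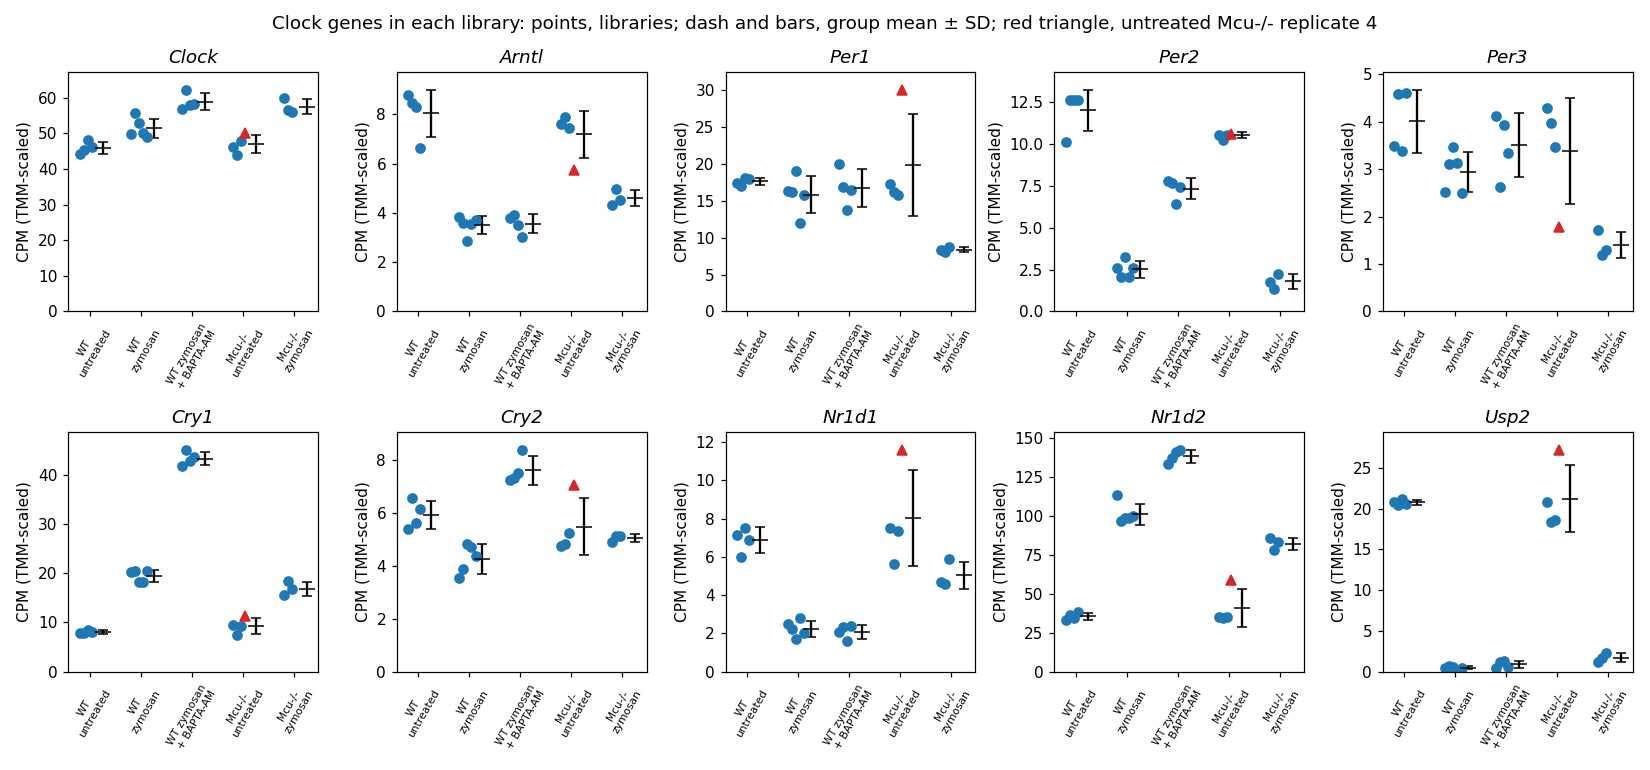
Level of each clock gene in each library, in TMM-scaled CPM on linear axes from 0, by group. Points are libraries, the dash and bars are the group mean ± SD, and the red triangle is untreated *Mcu*-/- replicate 4. *Usp2* lay at 20.5 to 21.2 CPM in untreated WT libraries and at 0.274 to 0.724 CPM with zymosan.

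With zymosan in WT macrophages, 3 of the 10 clock genes were called higher (*Cry1*, *Nr1d2* and *Clock*, the last turning lower on library totals) and 5 lower (*Usp2*, *Per2*, *Nr1d1*, *Arntl* and *Cry2*). Over all genes tested, 32.4% were called higher and 36.8% lower. Loading with BAPTA-AM left 5 clock genes called higher (*Per2*, *Cry1*, *Cry2*, *Nr1d2* and *Clock*) and 0 lower, where 6.43% of genes were called higher and 6.33% lower. Without untreated *Mcu*-/- replicate 4, 6 clock genes were called higher and 0 lower, and those shares were 15.3% and 16.5%. With all 20 libraries, edgeR had 6 of the 10 in that comparison at an unadjusted p under 0.05, and 25.5% of all genes. DESeq2 called 5 after adjustment and 14.3% of all genes. Since the members were selected on these contrasts, nothing is read from either count.

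*Clock* and *Arntl* encode the activators. *Clock*, a histone acetyltransferase and the DNA-binding partner of BMAL1, had 44.2, 45.3, 48.1 and 46.1 CPM in untreated WT libraries. With zymosan it had 49.7, 55.6, 52.9, 50 and 49.1 CPM, and with BAPTA-AM added 56.8, 62.3, 58.0 and 58.3 CPM. These ranges did not overlap, yet they were close together. Untreated *Mcu*-/- libraries held 46.3, 43.9, 47.8 and 50 CPM and *Mcu*-/- zymosan libraries 59.9, 56.6 and 56.0 CPM.

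The log2 fold change of *Clock* was 0.16 (SE 0.0472) with zymosan in WT, turning to −0.33 on library totals, and 0.19 (SE 0.0469) with BAPTA-AM. In *Mcu*-/- macrophages it was 0.29 (SE 0.0531, edgeR adjusted p = 7.68e-05) with zymosan, turning to −0.23 on library totals, and 0.32 (SE 0.0513, edgeR adjusted p = 4.88e-07) without replicate 4. All 3 zymosan libraries lay above every untreated one in TMM-scaled CPM. On library totals the median gene moved by −0.536 in WT and −0.584 in *Mcu*-/-, so *Clock* lay above the median gene on either scale. Between genotypes with zymosan it was higher by 0.16 (SE 0.051, edgeR adjusted p = 0.0108) in *Mcu*-/-. That call was lost on library totals (0.11, adjusted p = 0.0575) and without *Mcu*-/- zymosan column 3 (0.13, adjusted p = 0.0687); the lowest adjusted p among its alternatives was 0.00287. Between genotypes the *Clock* responses had a difference of 0.13 (SE 0.071, edgeR adjusted p = 0.17), which was not called, and without replicate 4 it was 0.16 (SE 0.0672, edgeR adjusted p = 0.0417), which was; adjusted p ran up to 0.362.

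*Arntl* encodes BMAL1. Untreated WT libraries held 8.78, 8.44, 8.30 and 6.62 CPM of it, and WT zymosan libraries 3.82, 3.57, 2.86, 3.56 and 3.71 CPM. BAPTA-AM loaded libraries were at 3.79, 3.93, 3.49 and 3.03 CPM, overlapping those with zymosan alone. In *Mcu*-/- macrophages the untreated libraries were at 7.61, 7.89, 7.45 and 5.75 CPM and the zymosan libraries at 4.30, 4.97 and 4.53 CPM, between the untreated and the stimulated WT levels.

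In WT the log2 fold change of *Arntl* with zymosan was −1.20 (SE 0.117), and with BAPTA-AM it was 0.02 (SE 0.126). In *Mcu*-/- macrophages zymosan lowered *Arntl*, at −0.64 (SE 0.133, edgeR adjusted p = 0.000271), or −0.73 (SE 0.124, edgeR adjusted p = 1.52e-06) without replicate 4. With zymosan it was higher in *Mcu*-/- than in WT by 0.39 (SE 0.133, edgeR adjusted p = 0.0156), with 3 of 3 libraries above every WT library. The fall was smaller in *Mcu*-/- by 0.56 (SE 0.176, edgeR adjusted p = 0.0202), or 0.48 (SE 0.167, edgeR adjusted p = 0.0135) without replicate 4. Without *Mcu*-/- zymosan column 4 both genotype differences missed the threshold, at adjusted p = 0.0729 with zymosan and 0.0615 for the difference of responses; over their alternatives adjusted p ran from 0.00832 to 0.0729 and from 0.00939 to 0.0615.

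Repressors of the clock include the 3 *Per* genes. *Per1*, an immediate-early gene of the clock that also answers to cAMP and glucocorticoids, had 17.4, 17.0, 18.0 and 17.9 CPM in untreated WT libraries. It had 16.3, 16.2, 19.0, 11.9 and 15.8 CPM with zymosan and 19.9, 16.9, 13.7 and 16.4 CPM with BAPTA-AM added. These 3 groups overlapped. Untreated *Mcu*-/- libraries were at 17.2, 16.1, 15.8 and, in replicate 4, 30.0 CPM. The *Mcu*-/- zymosan libraries were at 8.30, 8.08 and 8.75 CPM, below all other 17 libraries.

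*Per1* had a log2 fold change of −0.15 (SE 0.165) with zymosan in WT and 0.08 (SE 0.167) with BAPTA-AM. On library totals the first was −0.64, where the median gene moved by −0.536. In *Mcu*-/- it fell by 1.24 (SE 0.199, edgeR adjusted p = 2.02e-05) with zymosan on the log2 scale, and by 0.96 (SE 0.115, edgeR adjusted p = 1.09e-09) without replicate 4. It was lower in *Mcu*-/- than in WT with zymosan, at −0.92 (SE 0.194, edgeR adjusted p = 0.000528), a comparison that shares the WT zymosan libraries with those that chose members. The difference of the responses was −1.09 (SE 0.258, edgeR adjusted p = 0.00383), and −0.81 (SE 0.144, edgeR adjusted p = 6.71e-06) without replicate 4.

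*Per2*, the repressor whose loss shortens the period of the mouse clock, had 10.1, 12.6, 12.6 and 12.6 CPM in untreated WT. Zymosan left 2.62, 2.07, 3.26, 2.03 and 2.60 CPM, and BAPTA-AM loaded libraries held 7.79, 7.64, 6.42 and 7.43 CPM. The 3 groups were wholly apart, with the loaded libraries between the other two groups. In *Mcu*-/-, untreated libraries held 10.5, 10.2, 10.5 and 10.6 CPM and zymosan libraries 1.77, 1.36 and 2.24 CPM.

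For *Per2* the log2 fold change was −2.25 (SE 0.129) with zymosan in WT and 1.54 (SE 0.133) with BAPTA-AM. In *Mcu*-/- it was −2.54 (SE 0.162, edgeR adjusted p = 6.85e-11) with zymosan, and −2.52 (SE 0.155, edgeR adjusted p = 8.52e-18) without replicate 4, the member whose replicate 4 lay nearest the others. The difference of the responses was −0.29 (SE 0.208, edgeR adjusted p = 0.29), and without replicate 4 −0.28 (SE 0.214, edgeR adjusted p = 0.267), neither of them called. With zymosan *Per2* was lower in *Mcu*-/-, at −0.48 (SE 0.17, edgeR adjusted p = 0.019), although the libraries overlapped. That call was lost without WT zymosan replicate 3 (adjusted p = 0.0716) and without *Mcu*-/- zymosan column 3 (0.0519) or 4 (0.136), and adjusted p ran from 0.00533 to 0.136 over its alternatives.

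*Per3*, which the mouse clock can largely do without, had 3.49, 4.58, 3.38 and 4.60 CPM in untreated WT, 2.51, 3.10, 3.47, 3.12 and 2.49 CPM with zymosan, and 4.11, 2.62, 3.94 and 3.34 CPM with BAPTA-AM. Those 3 groups overlapped, and the log2 fold changes were −0.44 (SE 0.209) and 0.25 (SE 0.214). On library totals the first was −0.93, where the median gene moved by −0.536. Untreated *Mcu*-/- libraries were at 4.29, 3.98 and 3.47 CPM and, in replicate 4, 1.79 CPM. The *Mcu*-/- zymosan libraries were at 1.71, 1.19 and 1.29 CPM, so that replicate 4 lay nearer to them than to replicates 1 to 3.

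*Per3* was lower with zymosan in *Mcu*-/-, at −1.28 (SE 0.266, edgeR adjusted p = 0.000288), or −1.49 (SE 0.205, edgeR adjusted p = 2.71e-08) without replicate 4. It was also lower than in WT with zymosan, at −1.08 (SE 0.264, edgeR adjusted p = 0.0018). All 3 *Mcu*-/- zymosan libraries lay below every WT zymosan library. The difference of the responses was −0.84 (SE 0.339, edgeR adjusted p = 0.0623), which missed the threshold. Without replicate 4 the difference was −1.05 (SE 0.257, edgeR adjusted p = 0.000561), and adjusted p ran from 0.000561 to 0.147 over its alternatives. Since *Per3* in replicate 4 lay nearer the zymosan libraries, values without it cannot tell treatment from that difference between libraries.

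The cryptochromes, which carry the strongest repression of CLOCK and BMAL1, moved apart with zymosan in WT, and both were higher with BAPTA-AM. *Cry1* had 7.80, 7.76, 8.56 and 8.13 CPM in untreated WT libraries and 20.2, 20.4, 18.2, 18.1 and 20.5 CPM with zymosan. With BAPTA-AM added it had 41.8, 45.0, 42.7 and 43.5 CPM. The 3 ranges were far apart. Untreated *Mcu*-/- libraries held 9.39, 7.39, 9.27 and 11.3 CPM and *Mcu*-/- zymosan libraries 15.5, 18.4 and 16.7 CPM.

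*Cry1* rose by a log2 fold change of 1.27 (SE 0.0913) with zymosan in WT and by a further 1.15 (SE 0.0839) with BAPTA-AM. In *Mcu*-/- macrophages it rose by 0.85 (SE 0.0997, edgeR adjusted p = 3.94e-07), or 0.96 (SE 0.087, edgeR adjusted p = 9.97e-13) without replicate 4. Over the alternatives the zymosan rise of *Cry1* ran from 0.78 to 1.31 in WT and from 0.33 to 0.96 in *Mcu*-/-. Between genotypes with zymosan the value was −0.21 (SE 0.095), and the libraries overlapped. The 2 responses had a difference of −0.42 (SE 0.135), or −0.31 (SE 0.115) without replicate 4. Both comparisons use the WT zymosan libraries on which *Cry1* was selected and are given without a p.

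With zymosan in WT *Cry2* went the other way. Its untreated libraries had 5.41, 6.57, 5.61 and 6.17 CPM, those with zymosan 3.53, 3.88, 4.84, 4.71 and 4.38 CPM, and those with BAPTA-AM added 7.25, 7.31, 7.50 and 8.39 CPM. The loaded libraries lay above both other groups without overlap. The log2 fold changes were −0.47 (SE 0.12) with zymosan and 0.83 (SE 0.12) with BAPTA-AM. In *Mcu*-/- it had 4.77, 4.83, 5.26 and 7.06 CPM untreated and 4.89, 5.14 and 5.12 CPM with zymosan, a change of −0.12 (SE 0.136, edgeR adjusted p = 0.45). Without replicate 4 the change was 0.03 (SE 0.126, edgeR adjusted p = 0.83). On library totals it was −0.63 (edgeR adjusted p = 0.000161), where the median gene moved by −0.584. The difference of the responses was 0.36 (SE 0.181, edgeR adjusted p = 0.13), and 0.50 (SE 0.166, edgeR adjusted p = 0.00889) without replicate 4, so it was called only with that library left out; adjusted p ran from 0.00889 to 0.232. Between genotypes with zymosan *Cry2* was at 0.24 (SE 0.134, edgeR adjusted p = 0.124), not called although the libraries did not overlap.

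The REV-ERB genes moved in opposite directions with zymosan. *Nr1d1*, whose product REV-ERBα represses *Arntl* and *Nfil3*, had 7.16, 5.98, 7.53 and 6.90 CPM in untreated WT and 2.51, 2.22, 1.73, 2.79 and 2.00 CPM with zymosan. BAPTA-AM loaded libraries held 2.08, 2.35, 1.59 and 2.38 CPM, within the range without loading apart from the lowest. In *Mcu*-/- it had 7.54, 5.65, 7.34 and 11.6 CPM untreated and 4.71, 4.58 and 5.87 CPM with zymosan. These zymosan libraries lay above all 9 WT libraries that received zymosan.

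The log2 fold change of *Nr1d1* was −1.62 (SE 0.187) with zymosan in WT and −0.09 (SE 0.212) with BAPTA-AM. In *Mcu*-/- it was −0.66 (SE 0.199, edgeR adjusted p = 0.00606), and −0.43 (SE 0.141, edgeR adjusted p = 0.00582) without replicate 4, with overlapping libraries. In a fit of those 2 groups alone it missed the threshold (−0.64, adjusted p = 0.0522); the lowest adjusted p among the alternatives was 1.31e-05. With zymosan *Nr1d1* was higher in *Mcu*-/- than in WT by 1.17 (SE 0.206, edgeR adjusted p = 0.000102). The fall was smaller in *Mcu*-/- by 0.95 (SE 0.272, edgeR adjusted p = 0.0119), and by 1.19 (SE 0.2, edgeR adjusted p = 2.83e-06) without replicate 4.

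*Nr1d2* encodes REV-ERBβ, a partly redundant repressor. It had 33.1, 36.1, 34.2 and 38.6 CPM in untreated WT, 113, 96.8, 98.4, 98.5 and 100 CPM with zymosan, and 133, 137, 141 and 142 CPM with BAPTA-AM. The groups did not overlap. Untreated *Mcu*-/- libraries had 35.4, 34.4, 34.9 and, in replicate 4, 58.9 CPM, and *Mcu*-/- zymosan libraries 85.5, 77.9 and 83.0 CPM, all below the WT zymosan libraries.

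For *Nr1d2* the log2 fold change was 1.51 (SE 0.122) with zymosan in WT, 0.45 (SE 0.115) with BAPTA-AM and 1.01 (SE 0.133, edgeR adjusted p = 1.89e-06) with zymosan in *Mcu*-/-. Without replicate 4 the last was 1.24 (SE 0.0548, edgeR adjusted p = 2.61e-22). Over the alternatives the zymosan rise of *Nr1d2* ran from 1.02 to 1.56 in WT and from 0.49 to 1.24 in *Mcu*-/-. The genotypes differed with zymosan by −0.30 (SE 0.128, edgeR adjusted p = 0.0465), a call near the threshold. It was lost without any 1 of the 16 libraries other than untreated *Mcu*-/-, and adjusted p ran from 3.43e-07 to 0.14 over the alternatives. The responses differed by −0.51 (SE 0.179, edgeR adjusted p = 0.0349) and, without replicate 4, by −0.28 (SE 0.0718, edgeR adjusted p = 0.000869), a change of more than 1.5 times with 1 library. Adjusted p ran from 0.000869 to 0.0822 over the alternatives, missing the threshold in a fit of the 4 groups alone, without WT untreated replicate 1 or 3, without WT zymosan replicate 1 and without each *Mcu*-/- zymosan column.

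*Usp2* encodes a deubiquitinase under clock control that acts on PER1, BMAL1 and CRY1. Untreated WT libraries held 20.8, 20.5, 21.2 and 20.6 CPM and WT zymosan libraries 0.399, 0.724, 0.612, 0.274 and 0.499 CPM, which is 7, 14, 12, 5 and 9 counts. With BAPTA-AM added they held 0.480, 1.20, 1.33 and 0.607 CPM, overlapping those with zymosan alone. At 5 to 22 counts a library, these levels carry a large counting error. In *Mcu*-/- it had 20.8, 18.4, 18.6 and 27.2 CPM untreated and 1.18, 1.64 and 2.29 CPM with zymosan, which is 20, 29 and 46 counts.

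*Usp2* had a log2 fold change of −5.34 (SE 0.235) with zymosan in WT and 0.80 (SE 0.341) with BAPTA-AM. In *Mcu*-/- it was −3.62 (SE 0.241, edgeR adjusted p = 1.32e-10), and −3.47 (SE 0.15, edgeR adjusted p = 1.16e-22) without replicate 4. Between genotypes with zymosan the value was 1.76 (SE 0.322), and for the difference of the responses 1.72 (SE 0.365), or 1.87 (SE 0.298) without replicate 4. These use the WT zymosan libraries on which *Usp2* was selected and are given without a p.

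**Figure D2:**
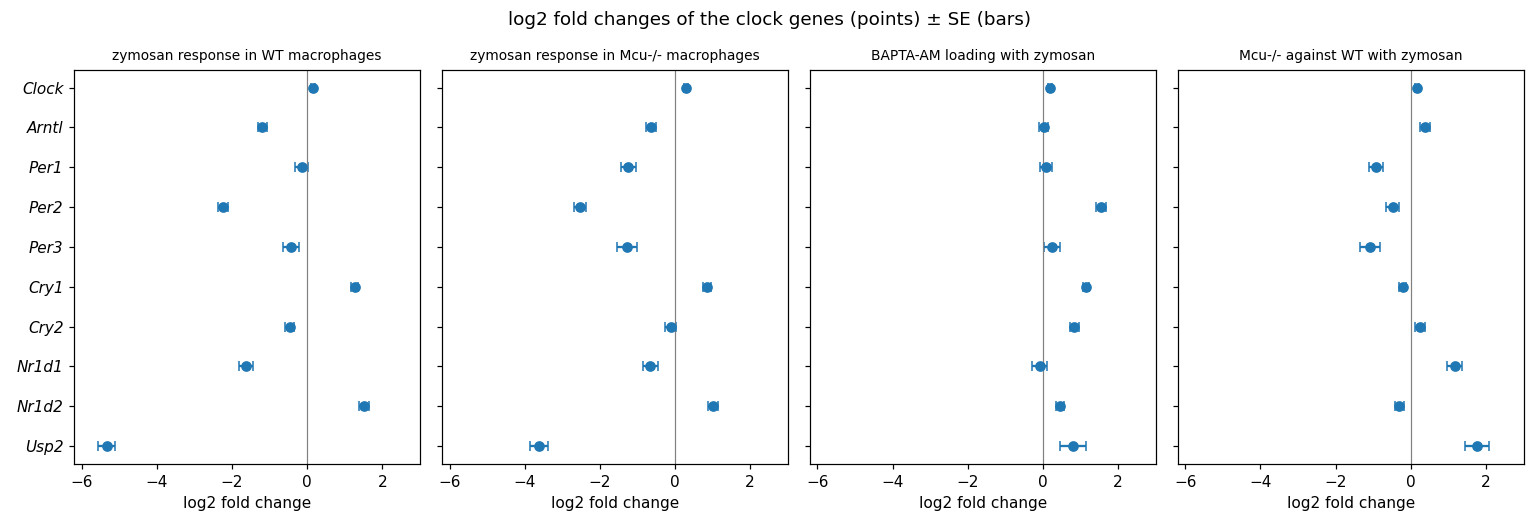
Log2 fold change of each clock gene in 4 comparisons (horizontal axis, points) with bars of ± SE, genes on the vertical axis. *Usp2* had the lowest value in both zymosan responses, at −5.34 in WT and −3.62 in *Mcu*-/-.

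In a comparison that did not choose members, zymosan in *Mcu*-/- macrophages had 3 of 10 clock genes called higher (*Cry1*, *Nr1d2* and *Clock*, the last again turning lower on library totals) and 6 lower, leaving *Cry2*. All genes tested gave 34.3% higher and 39.4% lower, so most genes were called. Without replicate 4 there were again 3 higher and 6 lower, against 39.2% and 42.4% of all genes. *Usp2* and *Cry1* were left out of the next counts, which use the WT zymosan libraries. Between genotypes with zymosan, 3 of the other 8 were higher in *Mcu*-/- (*Nr1d1*, *Arntl* and *Clock*) and 4 lower (*Per3*, *Per1*, *Per2* and *Nr1d2*), against 31.8% and 30.3% of all genes. Without *Mcu*-/- zymosan column 3 or 4 the calls came to 4 in all, where 55.9% of all genes were called in either fit, against 62.2% with every library. The median log2 fold change of the 8 was −0.07 there, and 0.02 over all genes tested. In the difference of the responses 2 of the 8 were higher (*Arntl* and *Nr1d1*) and 2 lower (*Per1* and *Nr1d2*), against 15.2% and 20%. Without replicate 4 there were 4 higher and 3 lower, against 31.0% and 29.3%, and without *Mcu*-/- zymosan column 4 there were 2 calls in all, where 29.0% of all genes were called, against 35.2% with every library.

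Untreated *Mcu*-/- and WT macrophages had 0 of the 9 clock genes other than *Usp2* called by edgeR, where 0.128% of all genes were called higher and 0.222% lower. At an unadjusted p under 0.05 there was 1 (*Cry1*), against 14.9% of all genes, and DESeq2 called 0, against 0.964%. The 95% intervals of the log2 fold changes show what could have been missed: they ran from −0.07 to 0.14 for *Clock* and from −0.69 to 0.21 for *Per3*, the narrowest and the widest. Adjusted p by edgeR ran from 0.321 to 0.745. Without replicate 4 the count was also 0, with 2 at an unadjusted p under 0.05 against 14.5% of all genes, and 1.53% of all genes were called higher and 1.83% lower.

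Per kilobase of exon, the level of *Usp2* in untreated WT macrophages, 4.31 ± 0.0621 CPM per kb (SD, n = 4), was below *Nr1d2* at 6.56 ± 0.444 and above *Clock* at 3.35 ± 0.122. *Per1* had 3.12 ± 0.079, *Cry1* 2.41 ± 0.111, *Nr1d1* 2.24 ± 0.215 and *Per2* 2.05 ± 0.209 CPM per kb. *Arntl* had 1.07 ± 0.128, *Cry2* 0.94 ± 0.0838 and *Per3* 0.418 ± 0.0694 CPM per kb. In this order the mean ± SD overlapped between *Cry1* and *Nr1d1*, *Nr1d1* and *Per2*, and *Arntl* and *Cry2*, and between no other neighbours. With zymosan, *Nr1d2* at 18.7 ± 1.24 and *Cry1* at 5.83 ± 0.367 CPM per kb (SD, n = 5) were the highest, and *Usp2* at 0.104 ± 0.0365 was the lowest.

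The other genes of the clock were 30 named from general knowledge, of which 25 passed the filter. With zymosan in WT, 12 of the 25 were called higher and 11 lower, where 32.4% of all genes were higher and 36.8% lower. *Nfil3*, a repressor of D-box genes, rose by 4.58 (SE 0.16, edgeR adjusted p = 5.01e-15) on the log2 scale. *Nampt*, which makes NAD precursor, rose by 3.27 (SE 0.22, edgeR adjusted p = 1.11e-10), and the chemokine gene *Ccl2* by 2.61 (SE 0.0538, edgeR adjusted p = 1.97e-18). *Cx3cr1*, a fractalkine receptor gene repressed by REV-ERB, fell by 5.25 (SE 0.143, edgeR adjusted p = 1.19e-16). Its WT zymosan libraries held only 6, 15, 9, 8 and 8 counts. In *Mcu*-/- the zymosan response had 13 higher and 10 lower, against 34.3% and 39.4% of all genes, with *Nfil3* up by 3.97 (SE 0.163, edgeR adjusted p = 8.75e-14) and *Ccl2* by 3.67 (SE 0.0593, edgeR adjusted p = 1.03e-19). Among the lower genes, *Cx3cr1* went from 9.52 to 10.7 CPM untreated to 1.7 to 2.18 CPM with zymosan. Without replicate 4 there were 13 higher and 9 lower, against 39.2% and 42.4%, with *Nfil3* up by 4.23 (SE 0.0943, edgeR adjusted p = 2.23e-32) and *Ccl2* by 3.73 (SE 0.0371, edgeR adjusted p = 3.32e-44).

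BAPTA-AM loading had 4 of these 25 higher and 3 lower, against 6.43% and 6.33% of all genes. *Bhlhe41*, which represses E-box genes, rose by 0.87 (SE 0.228, edgeR adjusted p = 0.0155), *Tef*, a D-box activator, by 0.61 (SE 0.0644, edgeR adjusted p = 3.71e-06) and the kinase gene *Wee1* by 0.33 (SE 0.0946, edgeR adjusted p = 0.0263). *Nfil3* fell by 0.80 (SE 0.125, edgeR adjusted p = 0.000262), from 74.9 to 85.4 CPM without loading to 44.8 to 48.6 CPM with it. Without untreated *Mcu*-/- replicate 4, 9 were higher and 7 lower, while the shares over all genes went to 15.3% and 16.5%.

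Between genotypes with zymosan, 9 of the 25 were higher and 9 lower, against 31.8% and 30.3% of all genes. *Rora*, which encodes an activator acting at ROR elements, was lower in *Mcu*-/- by −1.03 (SE 0.204, edgeR adjusted p = 0.000307). Its WT zymosan libraries held 7.94 to 14.2 CPM and its *Mcu*-/- zymosan libraries 5.02 to 6.00 CPM, without overlap. *Mmp9* was lower by −1.59 (SE 0.29, edgeR adjusted p = 0.000141), and *Ccl2* higher by 1.23 (SE 0.0524, edgeR adjusted p = 3.44e-12). *Cx3cr1* was higher by 2.01 (SE 0.186, edgeR adjusted p = 8.7e-08), and the Cre in these mice is also under *Cx3cr1*. Whether the Cre alters the level of *Cx3cr1* was not tested, and nothing is read from this value about REV-ERB. *Cx3cr1* rests on 6 to 15 counts in WT zymosan libraries, and its log2 fold change between untreated genotypes was −0.92, which enters the difference of the responses. In the difference of the responses there were 4 higher and 7 lower, against 15.2% and 20% of all genes, among them *Cx3cr1* at 2.92 (SE 0.215, edgeR adjusted p = 2.08e-08), *Mmp9* at −1.47 (SE 0.384, edgeR adjusted p = 0.00685), *Rora* at −1.35 (SE 0.296, edgeR adjusted p = 0.00223) and *Ciart* at −1.26 (SE 0.28, edgeR adjusted p = 0.00247). Without replicate 4 there were 10 higher and 9 lower, against 31.0% and 29.3%. *Cx3cr1* was then at 2.90 (SE 0.245, edgeR adjusted p = 4.46e-13), *Mmp9* at −1.77 (SE 0.0856, edgeR adjusted p = 2.77e-20), *Rora* at −1.07 (SE 0.23, edgeR adjusted p = 0.000118) and *Ciart* at −1.07 (SE 0.269, edgeR adjusted p = 0.000809). *Mmp9* in replicate 4, at 57.0 CPM, lay below the *Mcu*-/- zymosan libraries (70.6 to 73.4 CPM), while replicates 1 to 3 held 220 to 237 CPM. For *Mmp9*, treatment and that difference between libraries cannot be told apart.

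Untreated, the sole call among the 25 was *Cx3cr1*, lower by −0.92 (SE 0.108, edgeR adjusted p = 0.000163) in *Mcu*-/-. Its 4 libraries held 9.52 to 10.7 CPM against 17.8 to 19.7 CPM in WT. Without replicate 4 it was at −0.89 (SE 0.0847, edgeR adjusted p = 1.44e-09). *Timeless*, at 0.34 (SE 0.0974, edgeR adjusted p = 0.0452), and *Tipin*, at 0.29 (SE 0.0724, edgeR adjusted p = 0.015), were then called higher. Of all genes, 1.53% were then higher and 1.83% lower. With all 20 libraries neither was called, at 0.29 (SE 0.116, edgeR adjusted p = 0.275) for *Timeless* and 0.11 (SE 0.141, edgeR adjusted p = 0.693) for *Tipin*. Both encode partners of the replication fork and were named after their values were seen.

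Genes were ranked by the likeness of their pattern over the 20 libraries, as Pearson's r of log2 CPM, with no test since the libraries share groups. Nearest to *Cry1* were *Slc2a1* (r = 0.981), *Slc9a8* (0.976) and *Ago2* (0.967). Nearest to *Nr1d1* were *Susd3* (0.975), *Arhgap22* (0.97) and *Rsf1* (0.969). For *Usp2* they were *Tmem104* and *Ulk2* (both 0.987) and *Mvb12b* (0.986), and for *Per1* *Jade2* (0.926), *Sppl3* (0.909) and *Gpr146* (0.881).

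Some of these genes share exon sequence with neighbours on the opposite strand, and whether counting used the strand is not given in the sources used here. *Nr1d1* (chromosome 11 of mm10, 98767932 to 98775333) and *Thra*, a thyroid hormone receptor gene, share 263 bases of exon. *Thra* lay at 15.2 to 16.9 CPM untreated and 11.6 to 13.2 CPM with zymosan in WT. It fell by 0.33 on the log2 scale (SE 0.071; adjusted p = 0.00036 by edgeR). *Cry2* shares 295 exon bases with *D930015M05Rik*, *Usp2* 200 each with *Gm49380* and *Gm39325*, and *Arntl* 33 with *Gm45355*, so reads of these stretches cannot be told apart without strand.

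Promoters were searched for motifs because the clock loops are wired through them. RefSeq (GRCm38.p6) gave 13 promoters for 9 of the 10 genes, each 250 bases before to 50 after a start; *Per2* was the other. The motifs, read on both strands, were the E-box CACGTG, its variant CACGTT (E′-box), the cAMP element TGACGTCA, the D-box TTATGTAA or TTACGTAA, and the ROR element TAGGTCA or TGGGTCA. Of 32817 promoters, 7.15%, 4.69%, 1.79%, 1.05% and 6.46% held them. The E-box was in *Cry1* and *Per1*, the variant in *Cry1*, *Cry2* and *Nr1d1*, the D-box at 2 places in *Per3*, and the ROR element in 1 of the 2 *Arntl* promoters. None of the 13 promoters held the cAMP element. A match is a description of letters and shows no binding.

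The promoters of *Cry1*, *Per3*, *Nr1d1* and *Arntl* are shown because they hold motifs of the 3 loops, with capitals marking the matches on either strand. They are chr10:85185005-85185304 (minus strand), chr4:151044616-151044915 (minus strand), chr11:98775328-98775627 (minus strand) and chr7:113207261-113207560 (plus strand). The *Cry1* E-box began at −60 from the start, the 2 *Per3* D-boxes at −205 and −158, the *Nr1d1* variant at −28 and the *Arntl* ROR element at 30.
*Cry1*: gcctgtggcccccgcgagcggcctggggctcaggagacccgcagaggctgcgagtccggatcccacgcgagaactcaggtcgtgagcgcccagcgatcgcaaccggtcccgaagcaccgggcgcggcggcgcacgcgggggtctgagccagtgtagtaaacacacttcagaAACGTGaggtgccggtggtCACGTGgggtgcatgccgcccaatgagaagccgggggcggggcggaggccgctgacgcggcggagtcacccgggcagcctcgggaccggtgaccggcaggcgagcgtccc
*Per3*: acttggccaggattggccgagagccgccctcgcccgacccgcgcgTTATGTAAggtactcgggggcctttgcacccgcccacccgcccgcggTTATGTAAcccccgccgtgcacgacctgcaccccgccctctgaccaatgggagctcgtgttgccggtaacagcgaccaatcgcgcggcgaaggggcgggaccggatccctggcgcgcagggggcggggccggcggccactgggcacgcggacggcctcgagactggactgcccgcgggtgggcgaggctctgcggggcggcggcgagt
*Nr1d1*: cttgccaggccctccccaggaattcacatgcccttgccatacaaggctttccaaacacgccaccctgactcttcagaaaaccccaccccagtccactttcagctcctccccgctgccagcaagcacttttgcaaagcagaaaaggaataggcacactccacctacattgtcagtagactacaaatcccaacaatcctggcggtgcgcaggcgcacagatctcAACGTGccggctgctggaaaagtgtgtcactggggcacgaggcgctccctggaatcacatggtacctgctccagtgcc
*Arntl*: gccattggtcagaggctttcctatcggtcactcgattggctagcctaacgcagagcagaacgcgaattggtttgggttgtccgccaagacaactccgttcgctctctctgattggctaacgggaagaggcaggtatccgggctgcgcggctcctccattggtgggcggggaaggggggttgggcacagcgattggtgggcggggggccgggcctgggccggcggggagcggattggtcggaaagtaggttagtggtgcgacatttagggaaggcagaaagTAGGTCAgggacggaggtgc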

How the data were processed

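RNA-seq counts that the authors deposited were used: adaptors were removed with cutadapt, paired-end reads mapped to mm10 with STAR, and reads counted per gene with HTSeq, without normalization. Of 21938 symbols, 25 entries repeat one and were kept apart. Labels gave the groups. Columns of *Mcu*-/- macrophages with zymosan are numbered 3, 4 and 5, which differs from the labels, so they are named by column. In R 4.3.3, genes were filtered with filterByExpr, scaled with TMM and fitted with edgeR 4.0.16 quasi-likelihood over all 20 libraries, 1 coefficient per group, and adjusted by Benjamini-Hochberg. An SE is the absolute log2 fold change divided by the square root of F. Members and lists were chosen with earlier results of these data known. Named genes were the 10 members, up to 4 called other clock genes per comparison by absolute fold change with at least 1 CPM, *Mcu* and 4 cytokine or chemokine genes, the 3 likest genes of at least 5 CPM for 4 members, and overlapping genes. Exon lengths came from a GENCODE annotation of mm10. Alternatives were DESeq2 size factors, library totals, 2 other filters (1 count in any library, 10 counts in every library), DESeq2 1.42.0, the compared groups alone, a replicate block, its libraries without the block and leaving out each library. Scripts were tested on simulated data, where a first bound on recovery was not met for the difference of responses and was replaced by one on genes over 10 CPM. Figures used matplotlib 3.10.9. Library totals of 14420402 to 23954552 counts limit precision for genes of a few CPM.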

Additional observations from a re-analysis of the deposited data

Results flagged for a closer look

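In 5 of 40 sets of 4 or 5 libraries (10 genes in 4 groups), 1 library lay far from the rest, by the gap to its nearest neighbour as a share of the range. Chance alone does this in about 1 in 20 sets where values are independent and normally spread. The 40 sets share libraries, so no excess is read from the count. The share was 0.903 for *Per1* and 0.956 for *Nr1d2* in untreated *Mcu*-/- libraries, both from the high replicate 4. It was 0.974 for *Per2* in untreated WT libraries, where replicate 1 was low, and in WT zymosan libraries 0.733 for *Arntl*, where replicate 3 was low, and 0.796 for *Nr1d2*, where replicate 1 was high.

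The zymosan response differed between genotypes by edgeR's test of the difference for 4 of the 8 members other than *Usp2* and *Cry1*, where 35.2% of all genes were called. Without untreated *Mcu*-/- replicate 4 it was 7 of the 8, where 60.3% of all genes were called. In *Mcu*-/- minus WT on the log2 scale it was −1.09 for *Per1*, 0.56 for *Arntl*, 0.95 for *Nr1d1* and −0.51 for *Nr1d2*. The value was −0.42 for *Cry1*, which was selected on WT zymosan libraries, so no test is read there. Without untreated *Mcu*-/- replicate 4 the *Nr1d2* difference was −0.28, and its call was lost under 7 alternatives, at adjusted p from 0.0505 to 0.0822. The *Arntl* call was lost without *Mcu*-/- zymosan column 4 (adjusted p = 0.0615). The *Mcu*-/- zymosan libraries also differ from untreated *Mcu*-/- replicates 1 to 3 in collagen and macrophage marker levels, whose part was not tested.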

How the results depend on the processing

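Of 1614 log2 fold changes of members under the alternatives, 1564 kept their side of the threshold, 34 lost a call and 14 gained one. The 2 reversals were of *Clock* with zymosan on library totals, at −0.33 in WT and −0.23 in *Mcu*-/-; the median gene moved by −0.536 and −0.584 there. Library totals also lowered the share of calls that were higher from 46.8% to 18.6% in WT and from 46.5% to 19.0% in *Mcu*-/- with zymosan, and raised it from 50.4% to 74.9% with BAPTA-AM.

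Replicate numbers were shared by 4 groups, without the *Mcu*-/- zymosan columns. Libraries of the same number had correlations of −0.193 to 0.159 in their deviations from group means, over 0.1 in 3 of 24 pairs, so the numbers were not taken to pair them. The block could not be fitted for the 3 comparisons with *Mcu*-/- zymosan libraries. The fit with the block also leaves those libraries out, so its libraries were fitted without it too, an alternative chosen after seeing the data, which called 5 members, 7 other clock genes and 11.4% of all genes with BAPTA-AM. With the replicate block, members called there went from 5 to 3 (from 4 to 2 without *Usp2* and *Cry1*) and other clock genes from 7 to 4. It called 7.64% of all genes. *Clock* and *Nr1d2* were the members lost, while their log2 fold changes went from 0.19 to 0.18 and from 0.45 to 0.44. The cause was not tested.

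Other clock genes called with BAPTA-AM were 15 in a fit of the compared groups alone, where 32.2% of all genes were called, and between untreated genotypes 0 with at least 10 counts in every library, where 25 genes of all were called and *Cx3cr1* was not among those tested. Leaving out each library gave, for the 8 members other than *Usp2* and *Cry1*, 4 to 4 calls with BAPTA-AM, 4 to 7 between genotypes with zymosan, 2 to 7 for the difference of responses, 6 to 7 with zymosan in WT, 7 to 7 in *Mcu*-/- and 0 to 0 untreated. With both counted it gave 5 to 6, 5 to 9, 4 to 9, 8 to 9, 9 to 9 and 0 to 0, from which nothing is read where WT libraries chose them. For other clock genes it gave 5 to 16, 16 to 20, 9 to 19, 22 to 24, 22 to 24 and 1 to 3, and of all genes 8.85% to 31.8%, 54.8% to 70.1%, 28.9% to 60.3%, 66.4% to 78.5%, 69.0% to 81.5% and 0.188% to 3.35%. The highest came without untreated *Mcu*-/- replicate 4 for other clock genes and for all genes, except 24 with zymosan in *Mcu*-/-, found without replicate 1. The cause of these shifts was not tested. Genes under about 1 CPM, as *Usp2* in WT with zymosan, rest on few counts.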
